A study of Mus musculus with 5 samples.

Results

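The bins described here are stretches of about 5 kb that served as baits of a capture Hi-C experiment and whose bait names list transcripts of 3 or more different genes. Capture Hi-C crosslinks chromatin, cuts and re-ligates it, and enriches ligation products that contain chosen fragments, here at gene promoters. Gene symbols were obtained by splitting each bait name at its commas and dropping the transcript number. Of the 11523 bait bins in the deposited table, 11063 had a cis contact (both ends on the same chromosome) and lay on chromosomes 1 to 9. Of these 11063 bins, 4 carried 3 symbols, 375 carried 2 and 10684 carried 1. No bin carried more than 3, so the bins just outside the limit are the 375 with 2 symbols.

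The contacts were measured in mouse fetal gonads at E13.5. Sertoli cells, the supporting cells of the testis, were sorted from Sox9IRES-GFP embryos and gave 3 libraries. For the ovary, pre-granulosa cells, its supporting lineage, were sorted from Enh8-mCherry embryos and gave 2 libraries. Each library came from about 100000 cells picked by its fluorescent reporter, which is the definition of cell type used throughout, and the table holds no expression values against which it could be checked. The reporters also differ between the cell types, so reporter line and cell type cannot be told apart. The libraries of a cell type share 1 column of CHiCAGO scores, which compare the read pairs of a bait and another bin with a background that falls with distance. No value therefore has a replicate error, no p-value can be given, differences between bait classes or cell types are described and not tested, and the read depth is unknown. A score of 5 or more counted as a call, and the table lists a contact only if 1 or both cell types reached it. Bins that neighbour a bait are not listed, so the smallest listed distance is 10.03 kb. Intervals are 95% Wilson intervals for shares and 95% order-statistic intervals for medians, and they cover counting error only. Touching bins share signal, so these intervals are too narrow.

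Genes that lie close together can share a promoter region. In a bidirectional promoter, 2 genes start near each other on opposite strands and are transcribed away from each other, an arrangement common among housekeeping genes and histone genes. When captured fragments are joined into larger bait bins, the contacts of such a bin cannot be divided among the genes that start in it. Promoters contact other promoters and distal elements, mostly on the same chromosome and within the same domain of folded chromatin.

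The 4 bins lay on 4 chromosomes (mm10). The first (chromosome 2, 84677557 to 84682821, 5265 bp) was named for Gm28635-201, Med19-201, Tmx2-203 and Tmx2-206. Med19 encodes a subunit of Mediator, the complex that links transcription factors to RNA polymerase II, and Tmx2 encodes a thioredoxin-related membrane protein. Gm28635 is a predicted gene. The second (chromosome 3, 96219280 to 96224415, 5136 bp) was named for Bola1-203, Hist2h2ab-201 and Hist2h2be-201. Hist2h2ab and Hist2h2be encode core histones, and Bola1 encodes a mitochondrial protein. The third (chromosome 6, 83053590 to 83058844, 5255 bp) was named for Htra2-206, Htra2-208, Aup1-201 and Dqx1-201. Htra2 encodes a mitochondrial serine protease, Aup1 a protein of the endoplasmic reticulum and lipid droplets, and Dqx1 a helicase-like protein. The fourth (chromosome 7, 45483745 to 45489191, 5447 bp) was named for Tulp2-209, Gm45808-201 and Dhdh-201. Tulp2 encodes a tubby-like protein, Dhdh encodes dihydrodiol dehydrogenase, and Gm45808 is a predicted gene. None of the 4 bins carried a gene from the lists of 22 Sertoli, 21 pre-granulosa and 10 common supporting-cell genes, of which 6, 6 and 3 had a bait in the table. The promoters with which the 4 bins were paired included 0 of these genes as well, which so few listed genes among 11446 bait symbols leave without weight.

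RefSeq (GRCm38.p6) knew 10 of the 12 symbols, and Gm28635 and Gm45808 had no match. The bait names and the RefSeq gene positions did not always coincide. Of the Bola1/Hist2h2ab/Hist2h2be bin, the RefSeq genes inside were H2ac21 (96219885 to 96220354, the present symbol of Hist2h2ab), H2ac20 (96220413 to 96220880) and H2bc21 (96221072 to 96223738, the present symbol of Hist2h2be). The RefSeq gene Bola1 lay outside, in the promoter-named bins at -26.3 and -21.0 kb. The genes of the Aup1/Dqx1/Htra2 bin followed one another closely, with Htra2 ending at 83054571, Aup1 reaching from 83054495 to 83057682 and Dqx1 beginning at 83057747. Tulp2 (45482026 to 45523646) and Dhdh (45472956 to 45488888) overlapped over most of their shared bin. Tmx2 and Med19 formed a divergent pair, since a Tmx2 start on the minus strand (84678174) and the Med19 start on the plus strand (84678402) lay 228 bp apart and pointed away from each other. Another Tmx2 start lay at 84678828, inside Med19.

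The sequences before 4 transcript starts are shown because they are promoter sequence that the bait bins contain. They come from RefSeq's promoter table (GRCm38.p6) and run 5′ to 3′ on the strand of the named gene, ending at the base before a transcript start. Capitals mark the motif CCAAT, which reads ATTGG where it lies on the other strand, and the motif TATAAA. Both were searched on both strands, and no marked match overlaps another. The Med19 sequence (chr2:84678152-84678401, plus strand) spans the whole stretch between the divergent starts and, since the other Tmx2 start lies farther along, is inside the gene Tmx2. The H2ac20 sequence (chr3:96220881-96221071, minus strand) is the 191 bp between H2ac20, which the bait name does not list, and H2bc21. The H2ac21 (chr3:96219635-96219884, plus strand) and Tulp2 (chr7:45486012-45486261, plus strand) sequences are the 250 bases before a transcript start. That of Tulp2 precedes an inner start and lies inside both Tulp2 and Dhdh.
Med19: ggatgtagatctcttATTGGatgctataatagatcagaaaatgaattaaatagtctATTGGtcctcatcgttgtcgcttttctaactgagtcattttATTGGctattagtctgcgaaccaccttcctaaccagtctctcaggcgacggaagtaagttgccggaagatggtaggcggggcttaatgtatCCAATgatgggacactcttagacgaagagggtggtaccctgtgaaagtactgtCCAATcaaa
H2ac21: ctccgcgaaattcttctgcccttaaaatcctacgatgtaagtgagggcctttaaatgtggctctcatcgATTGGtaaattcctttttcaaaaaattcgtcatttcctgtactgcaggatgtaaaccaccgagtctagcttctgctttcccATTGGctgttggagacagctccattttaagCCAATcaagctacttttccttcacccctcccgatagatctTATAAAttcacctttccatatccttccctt
H2ac20: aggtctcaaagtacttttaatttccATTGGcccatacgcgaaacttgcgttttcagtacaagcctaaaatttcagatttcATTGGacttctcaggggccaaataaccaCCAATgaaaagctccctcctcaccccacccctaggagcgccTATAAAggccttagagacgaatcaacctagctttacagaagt
Tulp2: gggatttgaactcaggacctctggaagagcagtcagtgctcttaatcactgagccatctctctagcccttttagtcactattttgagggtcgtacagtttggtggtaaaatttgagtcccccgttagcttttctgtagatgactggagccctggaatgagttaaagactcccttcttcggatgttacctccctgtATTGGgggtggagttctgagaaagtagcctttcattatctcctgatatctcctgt

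The Med19 sequence held 5 CCAAT matches, at 235, 194, 153, 62 and 9 bases before the Med19 start. Among 32851 RefSeq promoter windows of 250 bases, 33.8% held at least 1 CCAAT match and 0.213% held at least 5. H2ac21 and H2ac20 each held 3 CCAAT matches, a number reached by 2.79% of the windows, and 1 TATAAA match, which 12.4% of the windows held. Their TATAAA matches began 30 and 42 bases before the start. Med19 and Tulp2 held 0 TATAAA matches, and Tulp2 held 1 CCAAT match, 55 bases before the start. The motif CCGGAAG (both strands) was found 1 time before Med19 and in 6.91% of the windows. GGGCGG (both strands) was found 0 times in the 4 sequences and in 32.7% of the windows. In the 250 bases before the start, Med19 had 8 CpG dinucleotides, H2ac21 and H2ac20 each had 7 and Tulp2 had 3, against a median of 6 in the windows (quartiles 2 and 16). A match of letters describes the sequence and does not show that a factor binds there.

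The multi-gene bins had many contacts. The table listed 120 cis contacts and 0 trans contacts for them. The Gm28635/Med19/Tmx2 bin had 57 contacts, the most of all 11063 bins. Of these, 52 were Sertoli calls and 46 pre-granulosa calls. The Aup1/Dqx1/Htra2 bin had 26 contacts, with 21 Sertoli and 23 pre-granulosa calls. The Dhdh/Gm45808/Tulp2 bin had 25, with 22 and 20 calls. The Bola1/Hist2h2ab/Hist2h2be bin had 12, with 7 and 9 calls. Over all listed cis contacts of chromosomes 1 to 9, 78.7% were Sertoli calls and 55.9% were pre-granulosa calls. In the 4 bins these were 102 and 98 of 120 contacts, so the pre-granulosa share was above the background and the Sertoli share was closer to it.

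Bins with 1 symbol had a median of 3 listed contacts, a mean of 3.44 Sertoli calls and a mean of 2.44 pre-granulosa calls. Bins with 2 symbols had a mean of 9.56 listed contacts, and multi-gene bins a mean of 30 and a median of 25.5. For calls the mean over 2-symbol bins was 8.05 in Sertoli cells, and in the multi-gene bins the means were 25.5 Sertoli and 24.5 pre-granulosa calls. Without the Gm28635/Med19/Tmx2 bin they were 16.7 and 17.3. Among the one-symbol bins, 0 had as many contacts as the Gm28635/Med19/Tmx2 bin, 63 had as many as the Aup1/Dqx1/Htra2 bin or more, and 79 reached the Dhdh/Gm45808/Tulp2 bin. The histone bin was matched or exceeded by 744 one-symbol bins, and by 1545 in Sertoli calls alone. The histone bin, the lowest of the 4, thus had more contacts than 93.0% of one-symbol bins. Other baits within 100 kb of the 4 bins had means of 9.88, 5.09, 9.45 and 9.81 contacts in the order of their chromosomes. The mean over one-symbol bins was 4.39.

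The number of transcript names rose with the number of symbols, and contacts were more numerous with more names, up to 4, among bins of a single gene. Names stand for transcripts whose promoter fragments were captured, and the multi-gene bins held a median of 3.5 names against 1 in one-symbol bins. One-symbol bins with 1, 2, 3 and 4 names had means of 2.91, 5.71, 9.76 and 18.4 Sertoli calls and of 2.05, 4.11, 7.18 and 14.7 pre-granulosa calls. The 4 one-symbol bins with 5 names did not continue this rise, with means of 4.75 and 4.5. Bins with 2 symbols and 4 names had means of 18.2 and 13.2. Beside one-symbol bins with as many names, the histone bin (3 names, 7 and 9 calls) was below the Sertoli mean and above the pre-granulosa mean. The other 3 multi-gene bins were above both means, the Aup1/Dqx1/Htra2 bin (4 names, 21 and 23 calls) by less than the Gm28635/Med19/Tmx2 bin (4 names, 52 and 46 calls) and the Dhdh/Gm45808/Tulp2 bin (3 names, 22 and 20 calls). Against the 201 one-symbol bins with 3 or more names, the multi-gene bins had 2.34 times as many contacts, and against all one-symbol bins 6.83 times as many. Against the 23 one-symbol bins with exactly 4 names they had 1.42 times as many. Without the Gm28635/Med19/Tmx2 bin the multi-gene mean was 21 contacts, against 21.1 in these 23 bins. The histone and Dhdh/Gm45808/Tulp2 bins carry 3 names, so this comparison is not fully matched on names.

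**Figure D1:**
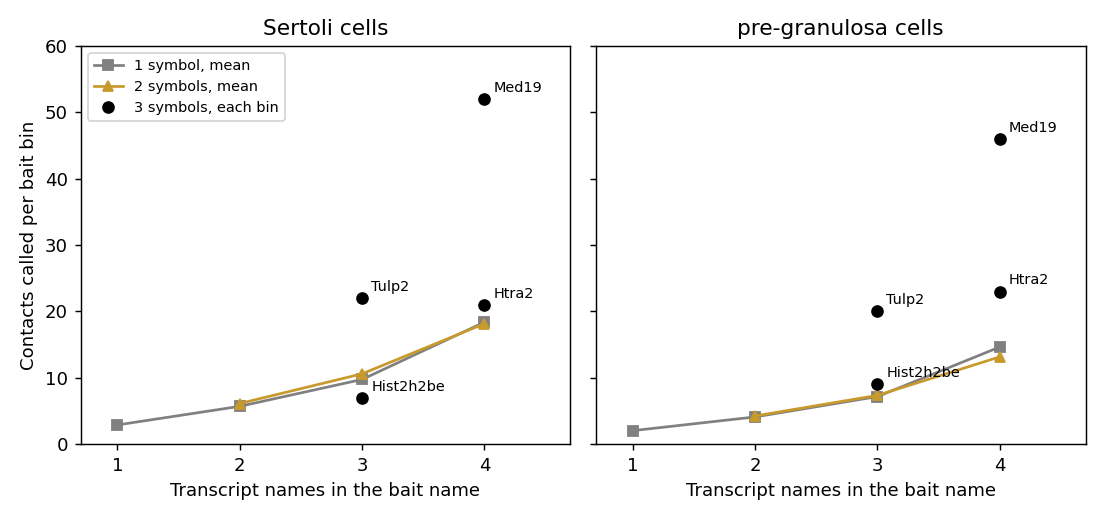
Contacts called per bait bin (vertical axis) against the number of transcript names in the bait name (horizontal axis), in Sertoli cells (left) and pre-granulosa cells (right), with lines for the means of one-symbol and two-symbol bins and a black point for each multi-gene bin, marked by 1 of its genes. The Med19 bin stands highest at 52 and 46 calls, while the Hist2h2be bin lies near the lines at 7 and 9.

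The number of RefSeq gene starts inside a bin went with much smaller differences. One-symbol bins with 0, 1, 2 and 3 RefSeq gene starts had means of 4.46, 4.34, 4.41 and 4.64 listed contacts, over 4089, 5812, 769 and 14 bins. The multi-gene bins themselves held 2, 2, 0 and 1 RefSeq starts in the order of their chromosomes. RefSeq's promoter table lists no start for Htra2, Aup1, Dqx1, Dhdh or H2bc21. Since that listing is incomplete, these counts cannot weigh gene starts against transcript names.

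The contacts lay in runs of touching bins, which were most broken at the histone bin. Those of the Gm28635/Med19/Tmx2 bin covered 399.8 kb (84448993 to 84848767) and filled 57 of the 71 bins available there, in unbroken runs of up to 14 bins. The Aup1/Dqx1/Htra2 bin filled 26 of 29 bins over 172 kb (82988581 to 83160923), of which the longest run had 11. The Dhdh/Gm45808/Tulp2 bin filled 25 of 42 over 243 kb (45391632 to 45634765), with a longest run of 11 as well. The histone bin filled only 12 of 35 over 207 kb (96057022 to 96263877), in runs of up to 4 bins. Merging touching bins into single contacts left 7.75 contacts per multi-gene bin against 3.16 per one-symbol bin.

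**Figure D2:**
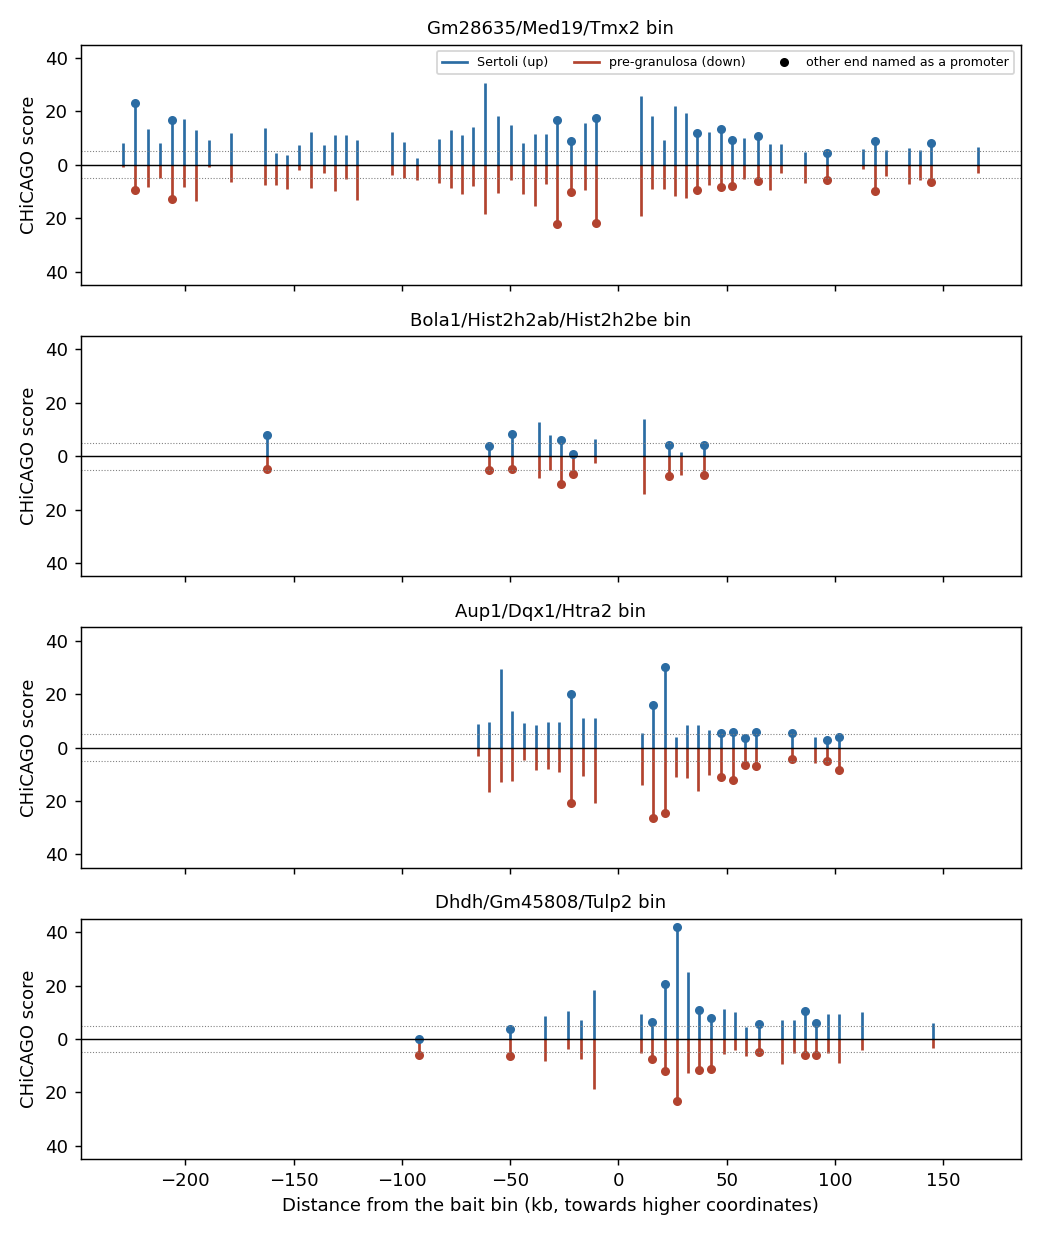
CHiCAGO scores of all 120 contacts of the multi-gene bins by signed distance in kb from the bait bin, with Sertoli scores drawn upwards in blue and pre-granulosa scores downwards in red, circles at other ends named as promoters and dotted lines at the score of 5. The Gm28635/Med19/Tmx2 bin is flanked by contacts from -229 to 166 kb, and the histone bin has 12 scattered ones.

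Reach differed among the 4 bins. The median distance of calls for the Gm28635/Med19/Tmx2 bin was 80.1 kb (58.0 to 126) over Sertoli and 71.0 kb (49.7 to 121) over pre-granulosa calls. It was 31.4 and 28.8 kb for the histone bin. The Aup1/Dqx1/Htra2 bin had the same median in both cell types, 38.2 kb, and so did the Dhdh/Gm45808/Tulp2 bin, at 45.8 kb. Pooled over the 4 bins, the median was 53.2 kb over Sertoli calls (42.96 to 67.1) and 49.4 kb over pre-granulosa calls (38.2 to 59.96). One-symbol bins had medians of 47.8 kb (47.2 to 48.2) and 37.7 kb (37.3 to 38.1). All 6 multi-gene calls at 200 kb or more in Sertoli cells, 5.88% of the calls, came from the Gm28635/Med19/Tmx2 bin, and without that bin the pooled medians were 37.8 and 37.0 kb, below those of one-symbol bins. Within 20 kb lay 13.7% of the Sertoli and 13.3% of the pre-granulosa calls of multi-gene bins, against 23.8% and 29.5% in all one-symbol bins and 17.0% and 18.99% in those with 4 transcript names. The bins differed here too, with 7.69% and 8.70% in the Gm28635/Med19/Tmx2 bin and 28.6% and 11.1% in the histone bin.

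Partners named as promoters made up 39 of the 120 contacts, 32.5% (24.8 to 41.3), against 54.8% of all listed cis contacts and 55.5% (55.1 to 55.98) in one-symbol bins. The share was 12 of 57 in the Gm28635/Med19/Tmx2 bin, 10 of 26 in the Aup1/Dqx1/Htra2 bin, 10 of 25 in the Dhdh/Gm45808/Tulp2 bin and 7 of 12 in the histone bin. In one-symbol bins with 3 or more transcript names it was 33.9%, which lies inside the interval of the multi-gene bins. Without the Gm28635/Med19/Tmx2 bin the multi-gene share was 42.9%. With each pair of bins counted once, the shares were 40.4% in multi-gene and 43.1% in one-symbol bins. Touching bins merged gave 64.5% and 66.8%, so most of the gap was gone in both settings. Within the stretch covered by its contacts, the Gm28635/Med19/Tmx2 bin was paired with 12 of the 13 promoter-named bins (92.3%) and 45 of the 58 others (77.6%). For the histone bin the numbers were 7 of 11 (63.6%) and 5 of 24 (20.8%). The Aup1/Dqx1/Htra2 bin was paired with 10 of 12 and 16 of 17, and the Dhdh/Gm45808/Tulp2 bin with 10 of 19 and 15 of 23. In these the promoter-named bins were not the more complete class, counted from the multi-gene bin's side. Promoters that listed the contact only from their own side, 3 and 7 for these bins, were not counted, and some lie inside these stretches. Counting them would make the promoter-named bins the more complete class for the Dhdh/Gm45808/Tulp2 bin. None of the 39 partners carried 3 symbols, but the multi-gene bins lay on different chromosomes, so no cis contact could link them. Whether such bins contact each other can therefore not be read from this count.

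**Figure D3:**
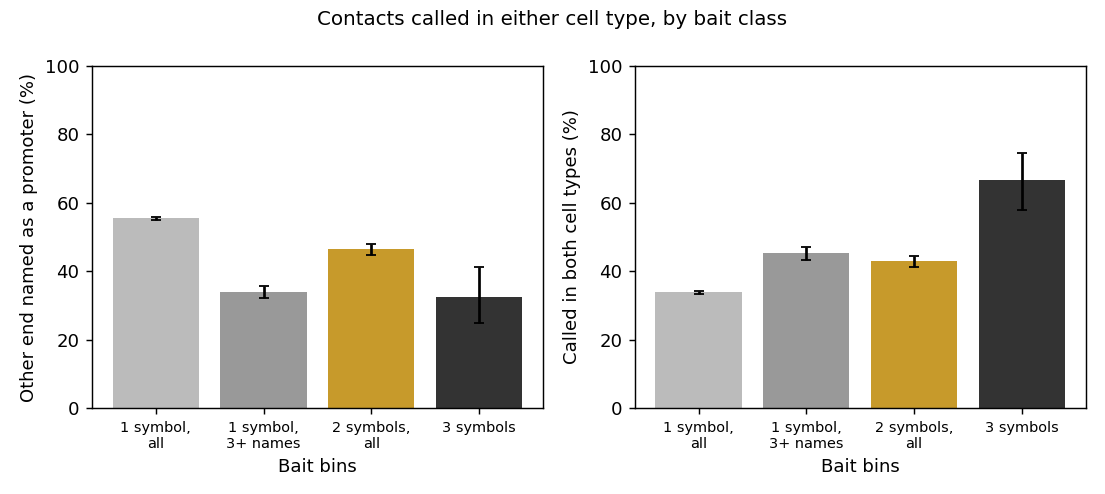
Shares of contacts called in either cell type whose other end is named as a promoter (left) and which were called in both cell types (right), in percent, for all one-symbol bins, one-symbol bins with 3 or more transcript names, two-symbol bins and multi-gene bins, with 95% Wilson intervals as error bars. The promoter share is 55.5% in all one-symbol bins and 32.5% in multi-gene bins, and the share called in both is 33.8% and 66.7%.

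All 39 promoter partners listed the contact from their own side too, whereas 66.8% of the promoter contacts of one-symbol bins were listed from both sides. Both values start from contacts listed by the bait itself. A further 16 contacts were listed by a promoter but not by the multi-gene bin, so not all pairs were two-sided. The same cell type had the higher score from both sides in 33 of the 39. The partner's side gave the higher Sertoli score in 34 of them, with medians of 12.5 from the partner and 7.84 from the multi-gene bin. Its pre-granulosa score was higher in 29, with medians of 13.1 and 7.88.

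Sertoli and pre-granulosa cells called many of the same contacts. Both called 80 of the 120 contacts, 66.7% (57.8 to 74.5), against 34.6% of all listed cis contacts and 33.8% (33.4 to 34.3) in one-symbol bins. The share was 71.9% in the Gm28635/Med19/Tmx2 bin (59.2 to 81.9), 69.2% in the Aup1/Dqx1/Htra2 bin (50.01 to 83.5), 68.0% in the Dhdh/Gm45808/Tulp2 bin (48.4 to 82.8) and 33.3% in the histone bin (13.8 to 60.9). Other baits within 100 kb shared 34.2%, 51.0%, 42.0% and 41.1% in the same order. One-symbol bins with 3 or more transcript names shared 45.3%, and those with exactly 4 shared 56.4% (51.9 to 60.7), an interval that overlaps that of the multi-gene bins. Two-symbol bins with 4 names shared 51.2% (46.1 to 56.2), an interval that lies below it. Scores were also higher in the multi-gene bins, with medians of 9.63 for Sertoli calls (9.11 to 11.2) and 8.83 for pre-granulosa calls (8.02 to 9.85), against 7.23 and 6.99 in one-symbol bins. One-symbol bins with 4 transcript names had medians of 9.05 (8.39 to 9.92) and 8.45 (7.98 to 9.21), intervals that overlap those of the multi-gene bins. Two-symbol bins with 4 names had 8.45 (7.92 to 8.93) and 8.06 (7.62 to 8.61), of which only the pre-granulosa interval overlaps. Of the 40 contacts called in 1 cell type, 29 (72.5%) had a score of at least 3 in the other and 4 had one under 1. In one-symbol bins 42.3% of such contacts had a score of at least 3 in the other cell type.

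At the score limit of 5 the numbers of calls in the cell types were near even. Over the 4 bins there were 1.04 Sertoli calls per pre-granulosa call, against 1.41 in one-symbol bins and 1.44 in two-symbol bins. In one-symbol bins with 3, 4 and 5 transcript names it was 1.36, 1.26 and 1.06, and in two-symbol bins with 4 names it was 1.38. This ratio was 1.13 for the Gm28635/Med19/Tmx2 bin, 1.10 for the Dhdh/Gm45808/Tulp2 bin, 0.91 for the Aup1/Dqx1/Htra2 bin and 0.78 for the histone bin, so each was below the ratio of one-symbol bins. At limits of 7 and 10 the ratio over the 4 bins was 1.23 and 1.33, and with the original baits it was 1.33. The ratio of one-symbol bins was also higher in these settings than at the limit of 5. The multi-gene ratio was thus 0.82, 0.81 and 0.69 times the one-symbol ratio of the same setting, against 0.74 times at the limit of 5. With the Sertoli limit raised until both cell types had equal numbers of calls over the table, the ratio was 0.95 in multi-gene and 0.99 in one-symbol bins, so most of the gap was gone. Other baits within 100 kb had ratios of 1.41, 1.56, 1.12 and 0.98 in the same order. The neighbourhoods of the Gm28635/Med19/Tmx2 and Dhdh/Gm45808/Tulp2 bins were thus at or above the one-symbol value, and those of the Aup1/Dqx1/Htra2 and histone bins were below it. Single contacts leaned to Sertoli cells in 72 of the 120, where the Sertoli score was the higher one, against 65.6% of all listed cis contacts.

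**Figure D4:**
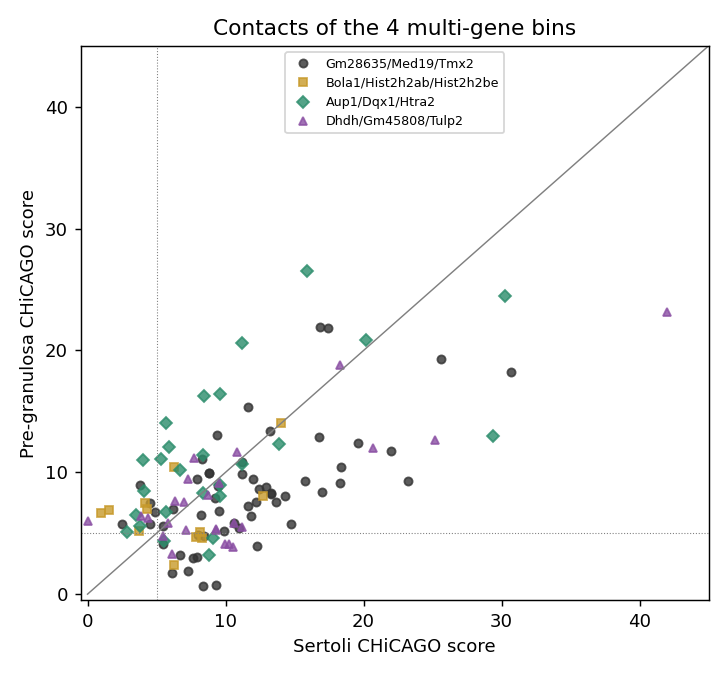
Pre-granulosa against Sertoli CHiCAGO score for the 120 contacts, 1 symbol shape per multi-gene bin, with the line of equal scores and dotted lines at 5. Of the points, 72 lie on the Sertoli side of the line, and the highest Sertoli score, 42.0, belongs to the Dhdh/Gm45808/Tulp2 bin.

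Contacts of the Gm28635/Med19/Tmx2 bin reached promoters of neighbouring genes on both sides and, farther off, those of Tfpi, which encodes the tissue factor pathway inhibitor, an inhibitor of blood coagulation. The Tfpi-210 bin (84454208 to 84459971), at -223 kb, scored 23.2 in Sertoli and 9.29 in pre-granulosa cells. From the Tfpi-210 side the same contact had scores of 31.6 and 15.8. The bin of Tfpi-207, Tfpi-206 and Tfpi-203, at -206 kb, had scores of 16.7 and 12.9. These were among the longest calls of the multi-gene bins in both cell types.

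Of the 12 promoter partners of this bin, 11 were called in both cell types. The bin of Ctnnd1 (84649151 to 84654949), which encodes the adherens junction protein p120-catenin, scored 16.8 in Sertoli and 21.96 in pre-granulosa cells. Selenoh, a selenoprotein gene, had 17.4 and 21.8, and Btbd18 had 8.81 and 9.98. Towards higher coordinates, Zdhhc5 (a palmitoyltransferase gene) had 11.98 and 9.41, and Clp1 (an RNA kinase gene) had 13.3 and 8.25. Ypel4 had 9.22 and 7.88, the predicted gene Gm19426 had 10.6 and 5.87, and Ube2l6, an interferon-inducible gene of the ISG15 pathway, had 8.83 and 9.95. The bin shared by Smtnl1 and Timm10 had 8.22 and 6.47. Serping1, the gene of the complement C1 inhibitor, was the other, scoring 4.51 in Sertoli cells, just under the limit, and 5.77 in pre-granulosa cells. The highest Sertoli score of this bin, 30.7, was to an unnamed bin at -61.8 kb (84615764 to 84620983) inside the gene Ctnnd1, where the pre-granulosa score was 18.2. Scores were higher in Sertoli cells for 25 of the 35 contacts at lower coordinates and for 16 of the 22 at higher coordinates. Other baits that contacted the same bins had higher Sertoli scores in 51 of 71 contacts at lower coordinates and in 17 of 34 at higher coordinates.

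Of the contacts of the Gm28635/Med19/Tmx2 bin, 11 (19.3%) were called only in Sertoli cells, against 44.4% of the contacts of one-symbol bins. In this bin 0 of the 11 had a promoter name, against 9989 of 20838 Sertoli-only contacts of one-symbol bins. The median distance of the 11 was 136 kb, against 60.4 kb for Sertoli-only contacts of one-symbol bins. The largest differences of inverse hyperbolic sine (asinh) scores towards Sertoli cells among all 120 contacts were in this bin. They were at unnamed bins at -189 kb (84488252 to 84493697), with scores of 9.28 and 0.77, and at -229 kb (84448993 to 84454207), with 8.35 and 0.64. Then followed -148 kb with 7.29 and 1.87, 113 kb with 6.12 and 1.72, and -105 kb with 12.3 and 3.92.

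The strongest pre-granulosa contacts of the 120 belonged to the Aup1/Dqx1/Htra2 bin. Tlx2, a homeobox gene, at 16.1 kb (83069837 to 83074842), had the highest pre-granulosa score of the multi-gene bins, 26.5, with a Sertoli score of 15.9. Pcgf1, which encodes a Polycomb group RING finger protein, at 21.3 kb, had 30.3 and 24.5 in Sertoli and pre-granulosa cells. From the partner's side the Sertoli score was the higher one for both, at 33.1 against 31.0 for Tlx2 and 33.8 against 20.004 for Pcgf1. For Tlx2 the direction thus depended on which end was taken as the bait. On the other side, the bin of Dok1 (a docking protein of tyrosine kinases) and Loxl3 (a lysyl oxidase-like enzyme) at -21.9 kb had 20.2 and 20.8.

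At this bin the count of contacts by direction differed by side. At higher coordinates 13 of 15 contacts had the higher score in pre-granulosa cells, with medians of 11.03 in pre-granulosa and 5.65 in Sertoli cells. Among them were the bins of Ccdc142 (Sertoli 5.35, pre-granulosa 11.1), Mrpl53, a mitochondrial ribosomal protein gene (5.93 and 12.1), Mogs, a glucosidase gene of protein glycosylation (3.54 and 6.53), and Wbp1 (5.71 and 6.76). The 2 exceptions were Pcgf1 and the bin of Rtkn-207 and Rtkn-203 (5.52 and 4.38). At lower coordinates 8 of 11 contacts had the higher score in Sertoli cells, but the medians went the other way, with 9.63 in Sertoli and 10.7 in pre-granulosa cells. The highest Sertoli score among these lay at -54.4 kb (82999268 to 83004305) within the gene M1ap, at 29.4 and 13.0. Other baits that contacted the same bins at higher coordinates had higher Sertoli scores in 35 of 69 contacts (50.7%), and at lower coordinates in 16 of 20. Seen from the partner's side, 4 of the 10 promoter contacts of this bin had the higher score in the other cell type, those of Tlx2, Mogs, Rtkn-209 and the bin of Dok1 and Loxl3. The same cell type scored higher from both ends in 10 of 12 contacts of the Gm28635/Med19/Tmx2 bin, 7 of 7 of the histone bin and 10 of 10 of the Dhdh/Gm45808/Tulp2 bin.

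In the Dhdh/Gm45808/Tulp2 bin the strongest contact joined 2 promoter regions of 1 gene. The bin of Tulp2-205, Tulp2-201, Tulp2-208 and Tulp2-206 (45510739 to 45516042), at 26.9 kb, had the highest Sertoli score of the 120 contacts, 42.0, and a pre-granulosa score of 23.1. From its own side the scores were 40.3 and 19.5. The next bin, at 32.1 kb, still inside Tulp2, had 25.2 and 12.7. Nucb1-210, of the gene for the calcium-binding protein nucleobindin 1, had 20.7 and 12.0005 at 21.4 kb, and Nucb1-206 had 6.37 and 7.64. The bin shared by Ppp1r15a, a stress-induced phosphatase regulator, and Plekha4 had 10.8 and 11.7, and that of Bcat2-201 and Bcat2-202, of a branched-chain aminotransferase gene, had 10.6 and 5.87. An unnamed bin at -17.1 kb that holds the RefSeq start of Bax, an apoptosis gene, had 7.02 and 7.60.

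Contacts at higher coordinates of this bin had the higher score in Sertoli cells in 14 of 19 cases, with medians of 9.33 and 5.87. Other baits with the same other ends did so in 50 of 61 (82.0%). At lower coordinates the Sertoli score was the higher one in 2 of 6 contacts, against 31 of 41 (75.6%) for other baits with the same other ends, but the medians went the other way, with 7.88 in Sertoli and 6.996 in pre-granulosa cells. The widest difference towards pre-granulosa cells among the 120 contacts was at the bin of Snrnp70, a splicing factor gene, at -92.2 kb (45391632 to 45396885), which scored 0.05 in Sertoli and 6.04 in pre-granulosa cells. From the Snrnp70 side the scores were 0.26 and 6.15. The bin of Ruvbl2 and Gys1, at -50.2 kb, was likewise called only in pre-granulosa cells (3.88 and 6.39).

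Of the 7 promoter partners of the histone bin, 2 were histone genes and 2 were named for Bola1. The bin had the higher score in pre-granulosa cells for all 4 contacts at higher coordinates, which lie in the histone cluster, though at the nearest, at 11.8 kb, the scores of 14.0 and 14.1 hardly differed. Hist2h2aa1-201, at 23.3 kb, scored 4.18 in Sertoli and 7.49 in pre-granulosa cells. Hist2h4-201, at 39.5 kb, had 4.32 and 7.02. The unnamed bin between them had 1.53 and 6.88. Other baits with the same other ends had the higher score in Sertoli cells in 8 of 10 contacts. Bola1-202, at -21.0 kb, had 0.96 and 6.70, and Bola1-201, at -26.3 kb, had 6.26 and 10.4. From their own side these were 2.49 and 12.6 for Bola1-202 and 8.94 and 13.1 for Bola1-201.

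At lower coordinates the Sertoli score was the higher one in 5 of 8 contacts, against 17 of 36 for other baits with the same other ends. Sf3b4, a splicing factor gene, at -49.0 kb, had 8.30 and 4.60. Vps45, a membrane trafficking gene, at -162 kb (96057022 to 96062042), had 7.84 and 4.68. Mtmr11, a gene of a myotubularin-related protein, at -59.96 kb, had 3.73 and 5.22. The pre-granulosa scores of Sf3b4 and Vps45 and the Sertoli scores of Hist2h2aa1 and Hist2h4 all lay between 4 and 5, just under the limit.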

How the data were processed

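Capture Hi-C contacts of 3 Sertoli and 2 pre-granulosa libraries were taken from 2 tables of CHiCAGO scores, 1 score per cell type, deposited by the authors. CHiCAGO, bins of 5 kb and the score limit of 5 are named in the names and headers of the deposited tables. The build mm10 comes from the submitters' processing notes. Versions, read filters, depth and the way libraries were combined are not given in the sources used here.

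The extended-bait table was used, restricted to cis rows with baits on chromosomes 1 to 9, and the original-bait table served as an alternative. Distances are those of the table. Counts, medians and shares were computed with Python 3.11.15, pandas 2.3.3 and scipy 1.17.1, and the summary routine was tested on simulated data. Of the 11446 symbols of bait bins, 11350 matched RefSeq, and 98.7% of these genes lay within 5 kb of their bin. The bins, gene lists and comparisons were chosen with earlier results of these data known. Named contacts are the 5 highest scores, 3 longest calls and 5 largest asinh differences per cell type, and the promoter partners of the 4 bins. The unnamed bins at -17.1, 11.8 and 32.1 kb were described after their values were seen. Contacts in trans, and all baits outside these 9 chromosomes, were not used here. Alternatives changed the score limit, the distances, the merging of bins and the one-symbol bins compared.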

Additional observations from a re-analysis of the deposited data

How the results depend on the processing

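No paired analysis was possible because scores are given per cell type and not per library, and for the same reason no library could be left out. No bin had 4 or more symbols, so that alternative has no value. Leaving out the Gm28635/Med19/Tmx2 bin, and setting the multi-gene bins against one-symbol bins with 12 or more contacts or with exactly 4 transcript names, were chosen after seeing the data. The call ratio of multi-gene bins stayed under that of one-symbol bins in all 13 alternatives, at 0.62 to 0.95 times it, against 0.74 in the report. The 0.95 came from matching the number of Sertoli calls to that of pre-granulosa calls, which removed most of the difference.

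Contacts per bin were 6.83 times those of one-symbol bins. The factor was 10.6 and 14.6 at thresholds of 7 and 10, 2.45 with touching bins merged and 4.30 without predicted genes, which left 2 bins. Without the Gm28635/Med19/Tmx2 bin it was 4.78 (Sertoli calls alone 4.85, against 7.42), and with bait bins within 100 kb matched it was 4.66. It was 2.34 against bins with 3 to 6 transcript names, 1.75 against bins with 12 or more contacts and 1.42 against bins with 4 names. The bins with 4 names had a mean of 21.1 contacts, and the multi-gene bins without the Gm28635/Med19/Tmx2 bin had 21. With the original baits it was 1.93, counted per captured fragment (9 listed fragments in the 4 bins) and not per bin.

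The median distance was 1.18 times that of one-symbol bins and 1.61 times with touching bins merged. It fell below that of one-symbol bins at 20 kb or more (0.95, Sertoli 0.96, pre-granulosa 0.96) and without predicted genes (0.78, 0.77 and 0.92). The same held without the Gm28635/Med19/Tmx2 bin (0.87, 0.79 and 0.98), with the original baits (0.97) and against bins with 12 or more contacts (0.97, Sertoli 0.92), where the separate values for the original baits (Sertoli 1.04, pre-granulosa 1.17) and the pre-granulosa value against 12 or more contacts (1.02) stayed above 1. The reach of the multi-gene bins relative to other baits therefore has no stable direction.

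The difference in promoter partners, -23.0 percentage points, was -34.1 and -39.9 at thresholds of 7 and 10 and -37.3 with bait bins within 100 kb matched. It was -12.7 without the Gm28635/Med19/Tmx2 bin, -10.8 without predicted genes, -2.86 against bins with 12 or more contacts, -2.63 with each pair counted once and -2.32 with touching bins merged. It was -1.38 against 3 to 6 transcript names, -0.010 against 4 names and -0.094 with the original baits, where almost no other end has a name.

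The difference in contacts called by both cell types, 32.8 points, was 7.51 at a threshold of 10, 10.3 against 4 names, 13.3 with touching bins merged and 21.4 against 3 to 6 names. It was 22.5 with the original baits and 23.9 without predicted genes. The cause of these changes was not tested.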

Other observations

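Seen from the other end, 16 further promoters listed a contact with a multi-gene bin that the bin itself did not list. They were 7 for the Dhdh/Gm45808/Tulp2 bin, 4 for the histone bin, 3 for the Aup1/Dqx1/Htra2 bin and 2 for the Gm28635/Med19/Tmx2 bin. The highest Sertoli score was that of Ftl1, which encodes the ferritin light chain, 29.0 kb below the Dhdh/Gm45808/Tulp2 bin, which scored 11.3 in Sertoli and 7.74 in pre-granulosa cells. Hsd17b14, a hydroxysteroid dehydrogenase gene, had scores of 9.64 and 4.05 with the same bin. The highest pre-granulosa score was that of Rtn4rl2, which contacted the Gm28635/Med19/Tmx2 bin from 209 kb away, with 7.10 and 9.84. In the histone cluster, Hist2h2bb listed the histone bin at 1.79 and 6.05, and the bin of Hist2h3c2 and Hist2h2aa2 at 5.86 and 4.98. Of the 9 histone symbols in the bait names, 2 were in the histone bin and 5 were among its partners when both ends were counted.

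In the table of single captured fragments, 9 fragments inside the multi-gene bins had listed cis contacts, 68 in all, of which 64 (94.1%) overlapped a contact of the bin. The fragments of a bin differed widely. In the Gm28635/Med19/Tmx2 bin, Tmx2-206 (84678881 to 84679440) had 19 Sertoli and 11 pre-granulosa calls and Gm28635-201 (84677557 to 84678158) had 8 and 6. Med19-201 (84678183 to 84678414) and Tmx2-203 each had 1 pre-granulosa call and 0 Sertoli calls. Tulp2-209 had 15 and 10 calls and Gm45808-201 had 3 and 1. Dqx1-201 had 8 and 9, Htra2-206 had 2 and 2, and Hist2h2be-201 had 1 call in each cell type.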
